A study of Mus musculus with 4 samples.

Results

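miR-451a, miR-144 and miR-486 are the microRNAs (miRNAs, small RNAs that pair with messenger RNAs and lower their output) most closely tied to red blood cells, and their reads were followed here in small RNA libraries of CD4+ T cells. The members were the mouse (mmu) rows mmu-miR-451a, mmu-miR-144-3p, mmu-miR-144-5p, mmu-miR-486a-5p and mmu-miR-486b-5p, which are 5 of the 1091 mature miRNAs listed for every library. They give 4 measurements, because miR-486a and miR-486b come from the opposite strands of a single locus. The libraries came from 4 groups of cells of C57BL/6 mice, with 1 library in each: Cbl-b-/- cells and WT cells stimulated with anti-CD3 for 48 h, and Cbl-b-/- cells and WT cells left unstimulated, which the labels call naive. Cbl-b is a ubiquitin ligase known as a brake on T cell receptor signals. The sources used here do not say how many mice gave the cells of a library. With 1 library per group a comparison of 2 libraries has no replicate check and carries no p-value.

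The genes of miR-144 and miR-451a form a cluster that the transcription factor GATA1 switches on as red cells mature. miR-451a is unusual in that the slicer protein AGO2 cuts it out of its hairpin, a step that Dicer performs for most miRNAs, and it is known to be very abundant in mature red cells. miR-486 lies within Ank1, the gene of the red cell membrane protein ankyrin-1, and is abundant in red cells and in skeletal muscle. None of the members is known as a defining miRNA of T cells.

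The sequences of the chromosome 11 cluster are shown because its 3 mature products are thought to come from 1 primary transcript, while their places in the hairpins differ. They are given 5′ to 3′ from RefSeq (GRCm38.p6). In the set of RefSeq sequences used here 3 of the 5 members were found by name. The capitals mark the seed, bases 2 to 8, which leads target recognition. None of the 3 seeds is shared with another of the 905 listed miRNAs that have a sequence in that set.
miR-451a: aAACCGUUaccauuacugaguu
miR-144-3p: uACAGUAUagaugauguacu
miR-144-5p: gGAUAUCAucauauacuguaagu
In the hairpins below the capitals mark the mature products.
Mir144: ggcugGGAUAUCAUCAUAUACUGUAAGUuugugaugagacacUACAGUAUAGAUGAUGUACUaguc
Mir451a: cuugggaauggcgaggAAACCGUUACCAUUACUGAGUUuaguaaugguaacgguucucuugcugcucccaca
The Mir144 hairpin has 66 bases (chr11:78073005-78073070, plus strand). The Mir451a hairpin has 72 bases (chr11:78073170-78073241, plus strand) and begins after a gap of 99 bases. In the predicted fold of the Mir144 hairpin the 5p arm takes positions 6 to 28 and the 3p arm positions 43 to 62, and neither reaches the terminal loop at positions 31 to 36. In the predicted fold of the Mir451a hairpin the mature product takes positions 17 to 38 and contains all 4 bases of the loop, with 17 of its 22 bases paired. Mir451b is annotated on the minus strand over the same bases, and no row for miR-451b was among those analysed here. Apart from Mir451b over Mir451a, no other annotated gene overlaps either hairpin. Mir486 (chr8:23142555-23142682, plus strand) lies in an intron of Ank1, and Mir3107, the gene of miR-486b, lies inside it on the minus strand (chr8:23142573-23142662).

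Read totals ran from 11561693 to 15436447 per library. Levels are counts per 1000000 of these reads (CPM), each with a 95% exact Clopper-Pearson interval that covers counting error only; copies of a read made by PCR are no independent molecules. The T cell list (miR-142a, miR-150, miR-181a, miR-146a, miR-342 and miR-26a products) had reads for all 7 members in every library. Its summed level was 188189 and 210556 CPM in the stimulated Cbl-b-/- and WT libraries, and 429359 and 448107 CPM in the unstimulated Cbl-b-/- and WT libraries. The genotype labels were not checked against Cblb messenger RNA, which was not analysed here.

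The red cell miRNAs were a small part of every library. With miR-486 counted once, the 4 measurements together held 0.0511% of reads in the stimulated Cbl-b-/- library (interval 0.0498% to 0.0524%) and 0.0210% in the stimulated WT library (0.0202% to 0.0218%). In the unstimulated libraries they held 0.0887% in Cbl-b-/- (0.0871% to 0.0903%) and 0.0747% in WT (0.0733% to 0.0760%). The stimulated WT library thus stood lowest, below the other three by more than counting error. miR-486 made up 79.6% of these reads in the stimulated Cbl-b-/- library, 86.6% in the stimulated WT library, and 86.7% and 88.7% in the unstimulated Cbl-b-/- and WT libraries.

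miR-451a, which in mice is known to limit oxidative damage in red cells, had 1061 reads (91.8 CPM, interval 86.3 to 97.5) in the stimulated Cbl-b-/- library and 319 reads (24.4 CPM, 21.8 to 27.2) in the stimulated WT library. It had 1392 reads (99.3 CPM, 94.2 to 104.7) in the unstimulated Cbl-b-/- library and 1106 reads (71.6 CPM, 67.5 to 76.0) in the unstimulated WT library. By library sums the Cbl-b-/- libraries of the 2 states were highest and overlapped within counting error. The unstimulated WT library followed, and the stimulated WT library was lowest by a wide margin. With TMM factors (edgeR's trimmed-mean scaling) the log2 ratio of stimulated over unstimulated Cbl-b-/- cells was -0.71, against -0.11 by library sums. The order of the libraries above stimulated WT therefore depends on the scaling.

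miR-144-3p, the arm of miR-144 that is usually taken as the guide, had 96 reads (8.30 CPM, 6.73 to 10.1) in the stimulated Cbl-b-/- library and 29 reads (2.22 CPM, 1.49 to 3.19) in the stimulated WT library. It had 133 reads (9.49 CPM, 7.94 to 11.2) in the unstimulated Cbl-b-/- library and 129 reads (8.36 CPM, 6.98 to 9.93) in the unstimulated WT library. By library sums 3 libraries were alike within counting error and the stimulated WT library was apart below them. With TMM factors the stimulated Cbl-b-/- library also stood below the unstimulated Cbl-b-/- one (log2 -0.79). miR-144-5p, the opposite arm of the hairpin, had 50 reads (4.32 CPM, 3.21 to 5.70) in the stimulated Cbl-b-/- library and 18 reads (1.38 CPM, 0.816 to 2.18) in the stimulated WT library. It had 132 reads (9.42 CPM, 7.88 to 11.2) in the unstimulated Cbl-b-/- library and 68 reads (4.41 CPM, 3.42 to 5.58) in the unstimulated WT library. Its highest library was the unstimulated Cbl-b-/- one, the stimulated Cbl-b-/- and unstimulated WT libraries overlapped, and the stimulated WT library was again lowest.

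miR-486a-5p was the most abundant member in each library, ranking between 62 and 139 of the 1091 miRNAs. It had 4696 reads (406 CPM, 395 to 418) in the stimulated Cbl-b-/- library and 2374 reads (182 CPM, 174 to 189) in the stimulated WT library. It had 10774 reads (769 CPM, 754 to 783) in the unstimulated Cbl-b-/- library and 10222 reads (662 CPM, 649 to 675) in the unstimulated WT library. The 4 libraries fell in this order from low to high: stimulated WT, stimulated Cbl-b-/-, unstimulated WT, unstimulated Cbl-b-/-, with no overlap of counting intervals. The miR-486b-5p row had 4678 and 2359 reads in the stimulated Cbl-b-/- and WT libraries, and 10727 and 10205 reads in the unstimulated Cbl-b-/- and WT libraries. The rows differed by 15 to 47 reads, so they are near copies and were read as 1 measurement through the miR-486a-5p row. The opposite arm, miR-486a-3p, had 4 and 0 reads in the stimulated Cbl-b-/- and WT libraries, and 17 and 16 reads in the unstimulated Cbl-b-/- and WT libraries; the floor of 3 counts taken for a count of 0 is 0.229 CPM there. miR-486b-3p had 0 reads in each stimulated library and 2 in each unstimulated one.

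**Figure D1:**
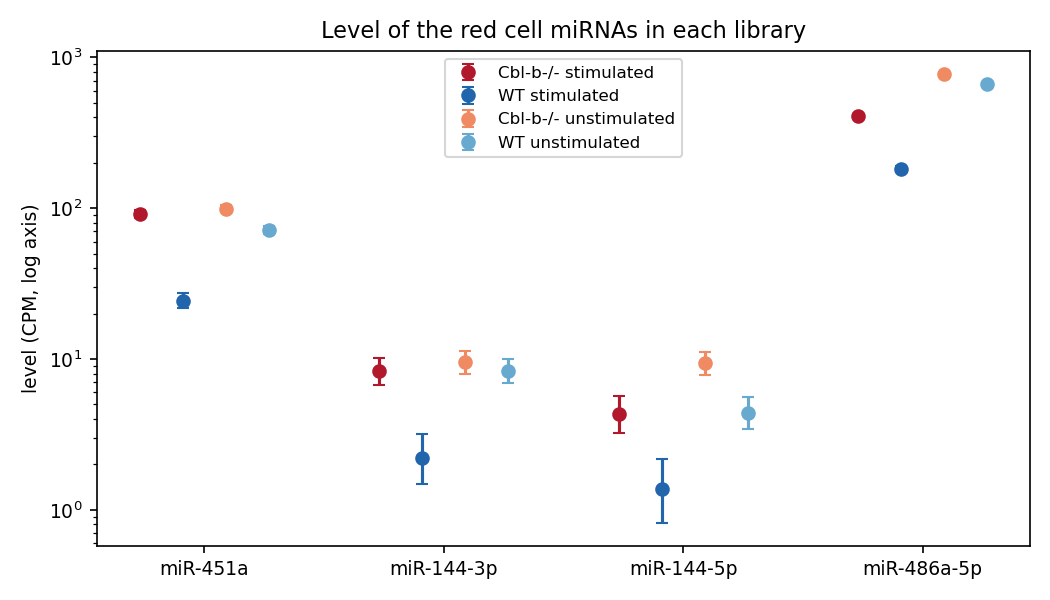
Level of miR-451a, miR-144-3p, miR-144-5p and miR-486a-5p in each library, in CPM on a log axis; each point is 1 library and the bars are 95% exact counting intervals. The stimulated WT library (dark blue) is the lowest for all 4 measurements, at 24.4, 2.22, 1.38 and 182 CPM.

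The first comparison addressed what the loss of Cbl-b goes with in stimulated cells. miR-451a and miR-486 were higher in the stimulated Cbl-b-/- library than in the stimulated WT library, and so were both arms of miR-144, with fewer reads. The ratio for miR-451a was 3.76-fold (log2 1.91, interval 1.73 to 2.10). For miR-144-3p it was 3.74-fold (log2 1.90, 1.29 to 2.56) and for miR-144-5p 3.14-fold (log2 1.65, 0.85 to 2.52). The ratio for miR-486a-5p was smaller, at 2.24-fold (log2 1.16, 1.09 to 1.23), and outside the interval of miR-451a. A miRNA was called different when it met 3 conditions: a ratio of 2-fold or more, 50 CPM or more on average in that pair of libraries, and a counting interval without a log2 ratio of 0. Of the 4 measurements, 2 reached this level minimum, miR-451a and miR-486, and were called higher in Cbl-b-/-; among all 230 miRNAs at this level 12 were (5.22%), and the median log2 ratio was -0.05. miR-451a reached it, with a mean of 58.1 CPM, through the Cbl-b-/- library alone. Neither the count of those called nor the place of miR-451a among these miRNAs is therefore support for a difference. Of these 230 miRNAs, 1 had a ratio above that of miR-451a, and 6 miRNAs other than the members had one above that of miR-486a-5p. Without a level minimum all 4 measurements were called higher, against 62 of 1057 miRNAs (5.87%). The 3 products of the chromosome 11 cluster are not independent of each other.

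In unstimulated cells the same ratios were smaller. miR-451a was 1.39-fold higher in the Cbl-b-/- library (log2 0.47, 0.36 to 0.59), and 9 of 197 miRNAs at 50 CPM or more had a larger ratio. miR-486a-5p had a log2 ratio of 0.22 (0.18 to 0.25), and among the 197, 28 miRNAs other than the members had a larger one. miR-144-3p had a log2 ratio of 0.18 (-0.18 to 0.54), whose interval includes no difference. miR-144-5p stood apart with 2.14-fold (log2 1.10, 0.66 to 1.54), from 132 and 68 reads in Cbl-b-/- and WT. At the level minimum 0 of the 4 measurements were called, against 3 of 197 miRNAs called higher (1.52%); without it miR-144-5p was, against 52 of 987 (5.27%).

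In the authors' deposited table of the stimulated pair all 5 member rows are marked as lower in WT, with deposited log2 fold changes of WT over Cbl-b-/- between -1.94 (miR-451a) and -1.20 (both miR-486 rows, to 2 decimals). That table marks 61 of its 1091 miRNAs this way (5.59%). In the authors' deposited table of the unstimulated pair, 1 member row is marked so, miR-144-5p with a deposited log2 fold change of -1.04, among 44 miRNAs (4.03%).

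The genotype ratio differed between the states by 1.44 in log2 for miR-451a (counting interval 1.23 to 1.65), higher in stimulated cells. It differed by 1.70 for miR-144-3p (1.01 to 2.39), by 0.95 for miR-486a-5p (0.87 to 1.03) and by 0.54 for miR-144-5p (-0.34 to 1.41). Of the 4 measurements, 1, miR-451a, met the rule here (a difference of 1 or more, and 50 CPM or more on average in the 4 libraries), against 5 of 223 miRNAs (2.24%). miR-486a-5p was just under the limit of 1, and among the 223, 5 miRNAs other than the members exceeded its difference. These intervals hold counting error only, so the spread between libraries was not measured.

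**Figure D2:**
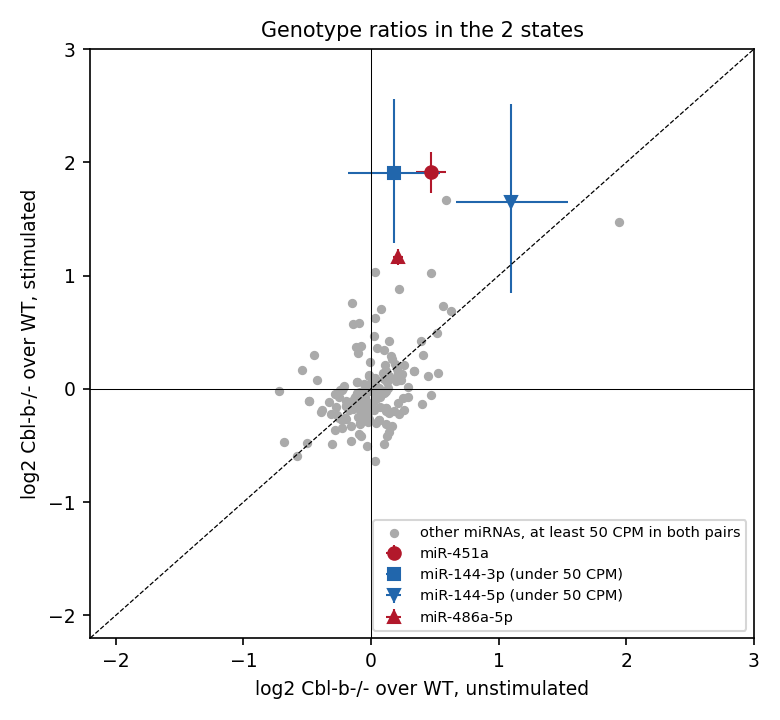
Log2 ratio of Cbl-b-/- over WT in stimulated cells (vertical axis) against the same ratio in unstimulated cells (horizontal axis), with 95% counting intervals for the 4 measurements; grey points are 181 other miRNAs and the dashed line marks equal ratios. The 4 measurements lie above the line, with miR-451a at 0.47 and 1.91 and miR-144-5p nearest to it at 1.10 and 1.65.

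The next comparison asked what goes with stimulation in each genotype. The libraries stand in separate tables and were set side by side through their raw counts. The labels give no time in culture for the unstimulated cells, so anti-CD3 and time in culture cannot be told apart. These ratios use the same 4 libraries as the genotype ratios, so they restate the same counts along the other axis. In Cbl-b-/- cells the members were spread widely. By library sums miR-451a was close to level, at 91.8 CPM in stimulated and 99.3 CPM in unstimulated cells (log2 -0.11, -0.23 to 0.00). The same held for miR-144-3p (log2 -0.19, -0.59 to 0.20). miR-486a-5p stood at 406 CPM in stimulated and 769 CPM in unstimulated cells (log2 -0.92, -0.97 to -0.87), short of 2-fold. miR-144-5p had a log2 ratio of -1.12 (-1.62 to -0.64). Of the 4 measurements, 0 were called lower, against 33 of 223 miRNAs (14.8%); without a level minimum miR-144-5p was, against 124 of 1053 (11.8%).

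In WT cells all 4 measurements had a lower CPM after stimulation. miR-486a-5p fell to 182 CPM in stimulated cells, against 662 CPM in unstimulated cells (log2 -1.87, -1.93 to -1.80). miR-451a stood at 34.1% of its unstimulated level (log2 -1.55, -1.74 to -1.37), with a mean of 48.0 CPM, just under the level minimum. miR-144-3p had a log2 ratio of -1.91 (-2.55 to -1.32) and miR-144-5p one of -1.68 (-2.52 to -0.91). Of the 4, 1 was called lower, miR-486, against 31 of 220 miRNAs (14.1%); without a level minimum all 4 were, against 108 of 1061 (10.2%). CPM are relative to all counted miRNAs, and the median log2 ratio of all miRNAs at this level was 0.34 in Cbl-b-/- and 0.40 in WT. With TMM factors (edgeR's trimmed-mean scaling), which moved the ratios (log2) by -0.60 for Cbl-b-/- and -0.61 for WT, miR-451a came to -0.71 in Cbl-b-/- and -2.17 in WT. miR-144-3p came to -0.79 in Cbl-b-/- and -2.53 in WT, and miR-486a-5p to -1.52 in Cbl-b-/- and -2.48 in WT. miR-486 was then called lower in each genotype, and miR-451a in WT.

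**Figure D3:**
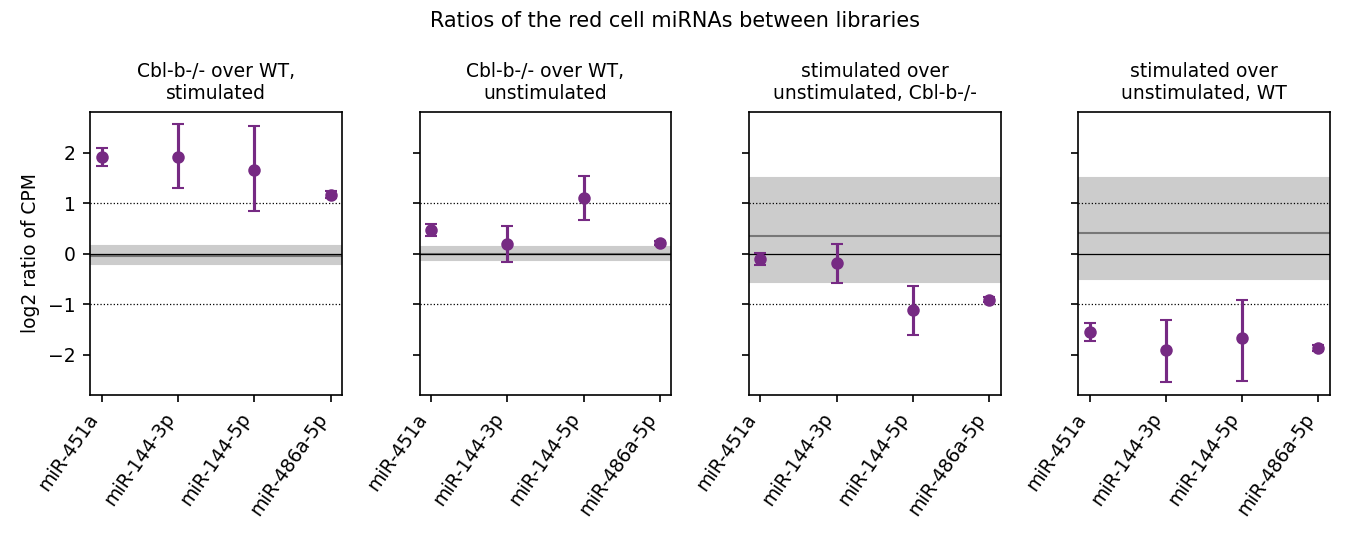
Log2 ratio of CPM of the 4 measurements for each comparison, with 95% exact counting intervals; the grey band spans the 25th to 75th percentile of all miRNAs with at least 50 CPM, the grey line is their median and dotted lines mark 2-fold. The 4 ratios lie between 1.16 and 1.91 for Cbl-b-/- over WT in stimulated cells, and between -1.91 and -1.55 for stimulated over unstimulated WT cells.

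Ratios of members within a library do not depend on its total. The ratio of miR-451a to miR-144-3p, products of neighbouring hairpins, was 11.1 (interval 8.96 to 13.8) in the stimulated Cbl-b-/- library and 11.0 (7.51 to 16.7) in the stimulated WT library. It was 10.5 (8.76 to 12.6) in the unstimulated Cbl-b-/- library and 8.57 (7.14 to 10.4) in the unstimulated WT library. These products thus kept nearly the same proportion while the level of each changed, and no difference between the libraries was detectable at this depth.

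The proportion of miR-451a to miR-486a-5p did differ. It was 0.226 (0.211 to 0.242) in the stimulated Cbl-b-/- library and 0.134 (0.119 to 0.151) in the stimulated WT library. It was 0.129 (0.122 to 0.137) in the unstimulated Cbl-b-/- library and 0.108 (0.102 to 0.115) in the unstimulated WT library. The stimulated Cbl-b-/- library stood apart as the 1 with the most miR-451a per miR-486, by 0.75 in log2 from stimulated WT (0.55 to 0.94) and by 0.81 from unstimulated Cbl-b-/- (0.68 to 0.93).

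The arms of miR-144 kept 1.92 reads of 3p per read of 5p in the stimulated Cbl-b-/- library (1.35 to 2.76) and 1.61 in the stimulated WT library (0.865 to 3.08). The ratio was 1.01 in the unstimulated Cbl-b-/- library (0.786 to 1.29) and 1.90 in the unstimulated WT library (1.40 to 2.58). The unstimulated Cbl-b-/- library therefore differed from the unstimulated WT library by -0.91 in log2 (-1.45 to -0.36), with more miR-144-5p per read of miR-144-3p.

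**Figure D4:**
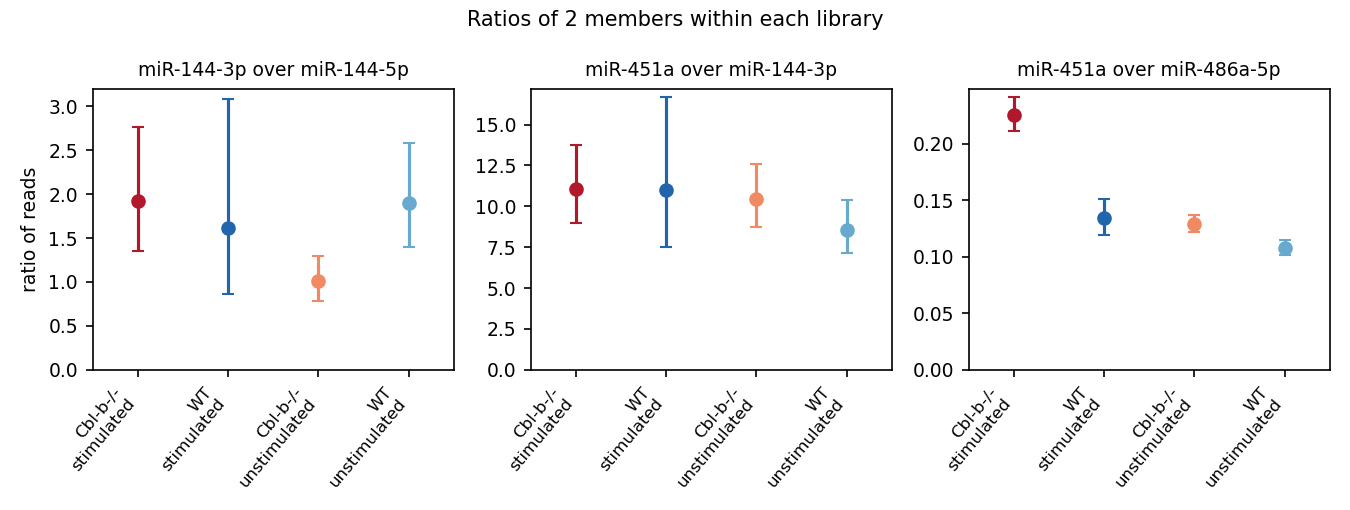
Ratio of reads of 2 members within each library, with 95% exact counting intervals; each point is 1 library. The ratio of miR-451a to miR-144-3p lies between 8.57 and 11.1 in all 4, while that of miR-451a to miR-486a-5p is 0.226 in stimulated Cbl-b-/- cells and 0.108 to 0.134 in the others.

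The design leaves 1 model test. All 4 libraries were fitted together with a term for genotype and a term for state, leaving 1 residual degree of freedom. This takes each effect as equal across the other factor. With library sums the members did not all show this. The stimulation ratio of miR-451a was log2 -0.11 in Cbl-b-/- and -1.55 in WT. That of miR-144-3p was -0.19 and -1.91, and that of miR-486a-5p -0.92 and -1.87. Only for miR-144-5p did the counting interval of the difference between states include equal ratios. For genotype, 0 of the 4 measurements passed an adjusted p of 0.05 (edgeR's quasi-likelihood test, Benjamini-Hochberg over 603 miRNAs), against 11 of 603 higher (1.82%). miR-451a had a log2 difference of 1.16 (adjusted p = 0.347, unadjusted p = 0.0339 by edgeR) and miR-486a-5p one of 0.67 (adjusted p = 0.413 by edgeR). miR-144-5p had 1.29 (adjusted p = 0.198, unadjusted p = 0.00985 by edgeR) and miR-144-3p 0.90 (adjusted p = 0.482 by edgeR). At an unadjusted p of 0.05 edgeR passed miR-451a and miR-144-5p, against 47 of 603 miRNAs higher (7.79%). DESeq2's test gave an adjusted p of 0.0713 for miR-451a and passed 0 of the 4.

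For stimulation, taken as equal in both genotypes, all 4 measurements passed and were lower by edgeR with TMM factors, against 203 of 603 miRNAs lower (33.7%). The log2 differences were -1.93 for miR-486a-5p (adjusted p = 0.00312), -1.88 for miR-144-5p (adjusted p = 0.00511), -1.35 for miR-451a (adjusted p = 0.0317) and -1.48 for miR-144-3p (adjusted p = 0.0448). With library sums in place of TMM factors miR-486a-5p and miR-144-5p passed, while miR-451a (log2 -0.81, adjusted p = 0.0593 by edgeR) and miR-144-3p (log2 -0.95, adjusted p = 0.0789 by edgeR) did not.

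Other miRNAs common in red cells, which T cells hold as well, had a median ratio near 1 between the genotypes. All 14 of this list (miR-16, miR-15, miR-92a, miR-25 and others) had reads in each library. Its median log2 ratio of Cbl-b-/- over WT was -0.07 in stimulated cells and -0.02 in unstimulated cells, with 0 of 14 and 0 of 13 measured members called (all miRNAs higher, 5.22% and 1.52%). Its highest ratio in stimulated cells was that of miR-22-3p, a miRNA of many tissues, at 48576 CPM in Cbl-b-/- and 29706 CPM in WT (log2 0.71). For stimulation its median log2 ratio was 0.20 in Cbl-b-/- and 0.13 in WT, with 1 of 13 called higher in Cbl-b-/-, miR-22-3p, and 0 of 13 in WT, against 78 of 223 (35%) and 78 of 220 (35.5%) of all miRNAs. Of 12 miRNAs with a described role in red cell formation, 2 were called higher in stimulated Cbl-b-/- cells than in stimulated WT cells. These were miR-222-3p (log2 1.03), which restrains the receptor KIT in red cell precursors, and miR-155-5p (log2 1.03), both of which activated T cells also make; the list's median was 0.27, and 12 of all 230 miRNAs (5.22%) were called higher. In unstimulated cells 0 of its 11 measured members were called, with a median of -0.02, against 3 of 197 miRNAs (1.52%). For stimulation its 12 members went both ways, with 5 called higher and 2 lower in Cbl-b-/-, and 4 higher and 2 lower in WT. Of all miRNAs 35% were called higher and 14.8% lower in Cbl-b-/-, and 35.5% and 14.1% in WT.

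Markers of other cells were followed beside the members, since fewer cells of a type and less RNA per cell cannot be told apart in bulk samples. The myeloid pair miR-223-3p and miR-223-5p summed to 69.4 and 83.4 CPM in the stimulated Cbl-b-/- and WT libraries, and to 413 and 485 CPM in the unstimulated ones. miR-223-3p was thus lower after stimulation in each genotype, at log2 -2.54 in Cbl-b-/- and -2.50 in WT. The platelet and endothelial pair miR-126a-3p and miR-126a-5p summed to 324 and 334 CPM in the stimulated Cbl-b-/- and WT libraries, and to 71.6 and 119 CPM in the unstimulated ones. miR-126a-5p was higher after stimulation, at log2 2.24 in Cbl-b-/- and 1.54 in WT.

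Of the striated muscle list, which bears on miR-486, 3 of 6 members had rows here (miR-133a-3p, miR-208b-3p and miR-499-5p), and each had at most 7 reads in a library. Their sum was 0.865 and 0.382 CPM in the stimulated Cbl-b-/- and WT libraries, and 0.571 and 0.518 CPM in the unstimulated ones. The stromal list of 5 summed to 50.9 and 45.9 CPM in the stimulated Cbl-b-/- and WT libraries, and to 171 and 166 CPM in the unstimulated ones, most of it miR-143-3p; miR-214-3p had 0 reads in the stimulated WT library. The liver miRNA miR-122-5p had 4 and 1 reads in the stimulated Cbl-b-/- and WT libraries, and 8 and 9 reads in the unstimulated Cbl-b-/- and WT libraries. Red cell messenger RNAs such as the globins were not measured, and the part of carried-over red cells in the members' ratios was not tested.

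Over 220 other miRNAs at 50 CPM or more on average, the profile over the 4 libraries nearest to that of miR-451a was miR-99b-5p (Euclidean distance of centred log2 CPM 0.86), followed by miR-125a-5p (0.87) and miR-874-3p (1.08). let-7e-5p, of the cluster that also holds miR-99b and miR-125a, came next (1.21), then miR-221-3p (1.21). The other members were nearer to miR-451a, with distances to miR-451a of 0.29 for miR-144-3p, 0.73 for miR-144-5p and 0.79 for miR-486a-5p. miR-99b-5p stood at 324 and 195 CPM in the stimulated Cbl-b-/- and WT libraries, and at 480 and 324 CPM in the unstimulated ones, an order of libraries like that of miR-486 but for the tie in the middle. The nearest to miR-486a-5p were miR-30a-5p (0.68), miR-125a-5p (0.74), let-7b-5p (0.77), miR-1843a-5p (0.81) and miR-378b (0.82). The members stood at distances to miR-486a-5p of 0.62 for miR-144-3p, 0.70 for miR-144-5p and 0.79 for miR-451a, so miR-30a-5p was nearer than miR-144-5p, and miR-30a-5p, miR-125a-5p and let-7b-5p were nearer than miR-451a. Distances over 4 libraries describe these libraries and carry no test.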

How the data were processed

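Small RNA libraries of total RNA were prepared with a NEBNext kit, per the labels' protocols. The authors deposited 2 tables, 1 for each state, with a raw read count per known mature miRNA and library. They also deposited a normalized read count (a score, the count divided by 1 constant per library), a p-value without adjustment, and a fold change (WT over Cbl-b-/-) on a linear and a log2 scale. Per the submitters' processing notes, Cutadapt 1.7.1 and the build GRCm38.p5 are named, without their role. The sources used here do not name the aligner, counter or annotation release.

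Counts were scaled by their library sums. Intervals are exact Clopper-Pearson intervals of a share of counts; those of differences used a normal approximation with 0.5 added to each count. A floor of 3 counts was given in CPM as a guide for a count of 0, and it entered no ratio, interval or fit. The additive fit used edgeR 4.0.16 with TMM factors, DESeq2 1.42.0 and R 4.3.3. Its genotype term was checked on simulated counts that held a genotype effect alone. They held no stimulation effect and no difference of the genotype effect between states, so the check does not bear on fits where these are present. Folds came from RNAfold 2.7.2, loci from GENCODE (GRCm38). Among rows with at least 20 reads summed over the libraries, 25 rows in 12 sets had identical counts. From these values, reads matching several miRNAs appear to count for each.

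The members and lists were chosen with earlier results of these data known. Named were the members, the opposite miR-486 arms, the most alike miRNAs, and leading or called list members.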

Additional observations from a re-analysis of the deposited data

How the results depend on the processing

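The members' log2 ratios were recomputed with another scaling, another miR-486 row or identical rows kept once. All 110 had the direction they had with library sums, and 88 stayed inside their counting interval. The miR-486 rows are near copies and no member was among the identical rows, so those alternatives could hardly move a ratio. Each of the 22 ratios that left its interval did so under another scaling, which shifts all members of a comparison by 1 shared amount. The number of the 4 measurements past the rule was more sensitive. For Cbl-b-/- over WT in stimulated cells 2 passed, but 1 with TMM factors or DESeq2 size factors, where the mean level of miR-451a drops under the minimum, 1 with a minimum of 200 CPM, 4 with none and 0 at 4-fold; in unstimulated cells 0 passed, and 1 with no minimum. For stimulation in Cbl-b-/- 0 passed, but 1 (miR-486) with TMM factors, DESeq2 size factors, the authors' implied totals, sums leaving out the 10 most abundant miRNAs or a fold limit of 1.5, and 1 (miR-144-5p) with no minimum. For stimulation in WT 1 passed, but 2 with TMM factors, DESeq2 size factors, the authors' implied totals or a minimum of 10 CPM, 4 with no minimum and 0 at 4-fold. For the difference between states 1 passed, but 2 with DESeq2 size factors, no minimum or a limit of 1.5, and 0 with 200 CPM or 4-fold. In the additive fit the 4 measurements lower after stimulation became 2 with library sums, an alternative chosen after seeing the data, and 3 with DESeq2 size factors in edgeR, where miR-144-3p no longer passed (log2 difference -1.57, adjusted p = 0.0501); the adjusted p of miR-144-3p ran from 0.0113 to 0.0789 over the alternatives.

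The split of all calls for stimulation depended on scaling: 78 higher and 33 lower in Cbl-b-/- became 50 and 69 with TMM factors and 53 and 67 with DESeq2 size factors, and 78 and 31 in WT became 49 and 69, and 48 and 70. Without the 10 most abundant miRNAs the Cbl-b-/- share of higher among called miRNAs was 60.0%, against 70.3% with library sums. Over all miRNAs called higher in the unstimulated genotype comparison, 3 became 11 at 10 CPM and 6 at 1.5-fold; in the stimulated one, 12 became 21 and 22. With no minimum the calls higher and lower came to 52 and 6 (unstimulated genotype comparison), 62 and 21 (stimulated genotype comparison), 278 and 124 (stimulation, Cbl-b-/-), 299 and 108 (stimulation, WT), and 25 and 22 (difference between states, in place of 5 and 1). With a minimum of 200 CPM they came to 0 and 0, 6 and 0, 37 and 21, 37 and 20, and 2 and 0. DESeq2 size factors gave 11 and 0 for the difference between states. Summing the miR-486 rows put the ratio of miR-451a to miR-486 at 0.113 in stimulated Cbl-b-/- cells and 0.0674 in stimulated WT cells, and at 0.0647 and 0.0541 in unstimulated Cbl-b-/- and WT cells. No paired analysis was possible because each group holds 1 library, and for the same reason no library could be left out of a comparison of 2. Depth limits miR-144 most, with 18 to 133 reads per arm and library.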
